A study of Mus musculus with 24 samples.

Results

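The cohesin complex and the enzymes that load, lock and release it were followed in primary mouse astrocytes after X-irradiation. The 10 genes described here were taken by name from the 49315 genes of each count file: the ring subunits Smc1a, Smc3, Rad21, Stag1 and Stag2, the acetyltransferases Esco1 and Esco2, the protector Cdca5 (sororin), and the release factors Wapl and Pds5b. All 10 were found, and all 10 passed the filter on low counts in each of the 7 comparisons. The cells were cortical astrocytes of wild type C57BL/6J embryos, in first passage, and each culture pooled the embryos of a single pregnant mouse. They were mock-irradiated (0 Gy) or exposed to 0.1 Gy or 2 Gy X-rays, and their poly(A) RNA was sequenced 6 h or 24 h later. This gave 6 groups of 4 biological repeats, 24 libraries in all, with the repeats numbered 1 to 4 in every group; the groups differed in dose and time only. The cells were not sorted, so other cells of the cortex may be present.

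Cohesin is a ring of Smc1a, Smc3 and Rad21, to which Stag1 or Stag2 binds. It folds chromatin into loops throughout the cell cycle and, after DNA replication, holds sister chromatids together until mitosis. Cohesion is set up in S phase, when Esco2, which is made mainly in dividing cells, acetylates Smc3; sororin then binds the acetylated ring and keeps Wapl and Pds5 proteins from opening it. Esco1 acetylates Smc3 outside S phase as well, and is also found in cells that do not divide. In bulk RNA, fewer cells of a type and less RNA per cell cannot be told apart, which touches each value given here.

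Promoter sequences were taken from RefSeq (build GRCm38.p6). Windows from 250 bases before to 50 bases after the RefSeq gene start were read for 6 of the 10 genes, and not for Rad21, Stag2, Esco1 and Esco2. The window of Cdca5 (chr19:6084847-6085146, plus strand) is shown because Cdca5 is compared with the ring here, and that of Smc3 (chr19:53600146-53600445, plus strand) as the ring subunit that is acetylated. Capitals mark matches, on either strand, to the cell cycle homology region (TTTGAA or TTCGAA), to an E2F site (TTTCCCGC, TTTGGCGC, TTTCGCGC or TTTGCCGC) or to the CCAAT box.
Cdca5: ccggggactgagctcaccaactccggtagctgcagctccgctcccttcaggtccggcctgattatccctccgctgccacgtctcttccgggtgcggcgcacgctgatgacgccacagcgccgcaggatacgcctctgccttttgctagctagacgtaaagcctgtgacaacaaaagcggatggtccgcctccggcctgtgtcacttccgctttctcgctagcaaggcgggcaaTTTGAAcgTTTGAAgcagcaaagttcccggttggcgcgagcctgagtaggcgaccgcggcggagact
Smc3: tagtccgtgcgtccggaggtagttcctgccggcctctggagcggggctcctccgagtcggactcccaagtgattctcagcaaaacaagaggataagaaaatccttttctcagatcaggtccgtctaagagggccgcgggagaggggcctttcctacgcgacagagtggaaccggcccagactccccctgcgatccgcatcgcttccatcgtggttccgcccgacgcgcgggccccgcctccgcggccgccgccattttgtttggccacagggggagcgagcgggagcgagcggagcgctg
The Cdca5 window held 2 copies of TTTGAA, whose first bases lay 17 and 9 bases before the RefSeq start, and no match to the other motifs. That start lies 114 bases inside the gene as the count files annotate it; for Smc3 the starts are 2 bases apart, and for Stag1 the RefSeq start lies 45650 bases inside the gene. The Smc3 window held no match to any of them. Of the other 4 windows, that of Pds5b held TTTGAA, those of Stag1 and Smc1a held TTTCCCGC, and all 4 held a CCAAT box. Among all 32851 promoter windows, 19.2% held the cell cycle homology region, 2.3% an E2F site and 37.4% a CCAAT box. These matches describe the letters only.

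The libraries held between 14742855 and 38194800 counts, with a median of 24829888.5. Levels are given as CPM, read counts scaled to a common library size by edgeR's TMM method. All 8 astrocyte markers checked were above 1 CPM in every group, and their summed level lay between 1760 and 2660 CPM. The 6 microglial markers summed to between 126 and 144 CPM in the libraries numbered 2 and to between 829 and 1200 CPM in all others, at every dose. Of 6 oligodendrocyte lineage markers 4 or 5 were above 1 CPM, with sums between 233 and 746 CPM; of 5 neuronal markers 2 were, with sums between 41.1 and 128 CPM. Of 6 fibroblast and vessel markers 2 or 3 were above 1 CPM, with sums between 186 and 958 CPM and Cldn5 at 0 in 3 groups. The ranges of these sums overlapped between doses at each time. Read by replicate number at 24 h, the oligodendrocyte lineage sum was higher than in mock (461, 499, 485 and 321 CPM) in 4 of 4 pairs both after 0.1 Gy (534, 746, 587 and 410 CPM) and after 2 Gy (543, 741, 572 and 333 CPM), which share the mock libraries. The part of these cell types in the results was not tested. Single markers passed in the fit that pairs libraries by replicate number: at 24 h after 2 Gy, P2ry12 of microglia was lower (log2 fold change -0.52, adjusted p 0.0287) and the astrocyte genes Gfap (0.36, 0.0426) and Aldh1l1 (0.34, 0.0376) were higher, and after 0.1 Gy Olig1 was higher (0.41, 0.0285), each in 4 of 4 pairs. That fit called 2100 of 15892 genes after 2 Gy and 1107 of 16183 after 0.1 Gy. After 2 Gy the other 5 microglial markers lay between -0.01 (Csf1r) and 0.19 (Tmem119) in that fit and the other 6 astrocyte markers between -0.31 (Aqp4) and 0.17 (Sox9), and none of these 11 was called. After correction for GC content and length, the markers that had passed (P2ry12, Gfap and Aldh1l1 after 2 Gy, Olig1 after 0.1 Gy) had adjusted p between 0.171 (Aldh1l1) and 0.529 (Olig1). At 24 h, the libraries numbered 3 stood apart in base composition, as described with the results they touch.

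In mock-irradiated astrocytes at 24 h, the 10 transcripts spanned a wide range of levels per kb of exon, on the scale of CPM per kb. Rad21, the subunit that closes the ring, was highest at 59.3 ± 9.78 (SD, n = 4), and its lowest library lay above every library of the next gene. Smc3 with 24.5 ± 3.14, Smc1a with 22.5 ± 1.80, Stag2 with 20.2 ± 6.84 and Wapl with 15.1 ± 3.68 followed, and neighbours in this order overlapped. The next genes, Esco1 with 8.15 ± 2.79, Pds5b with 8.12 ± 2.41 and Stag1 with 6.76 ± 2.14, overlapped each other and lay below Wapl in every library. Cdca5 with 3.75 ± 1.30 and Esco2 with 3.58 ± 1.24 were the lowest, and overlapped. Rad21 was also first and Esco2 last in mock at 6 h. The middle of the order rests on the length used: per kb of longest transcript, Stag1 had a mean of 12.9, Pds5b of 10.8, Esco1 of 8.15 and Wapl of 15.8 CPM per kb at 24 h, while Rad21 stayed first and Esco2 last.

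**Figure D1:**
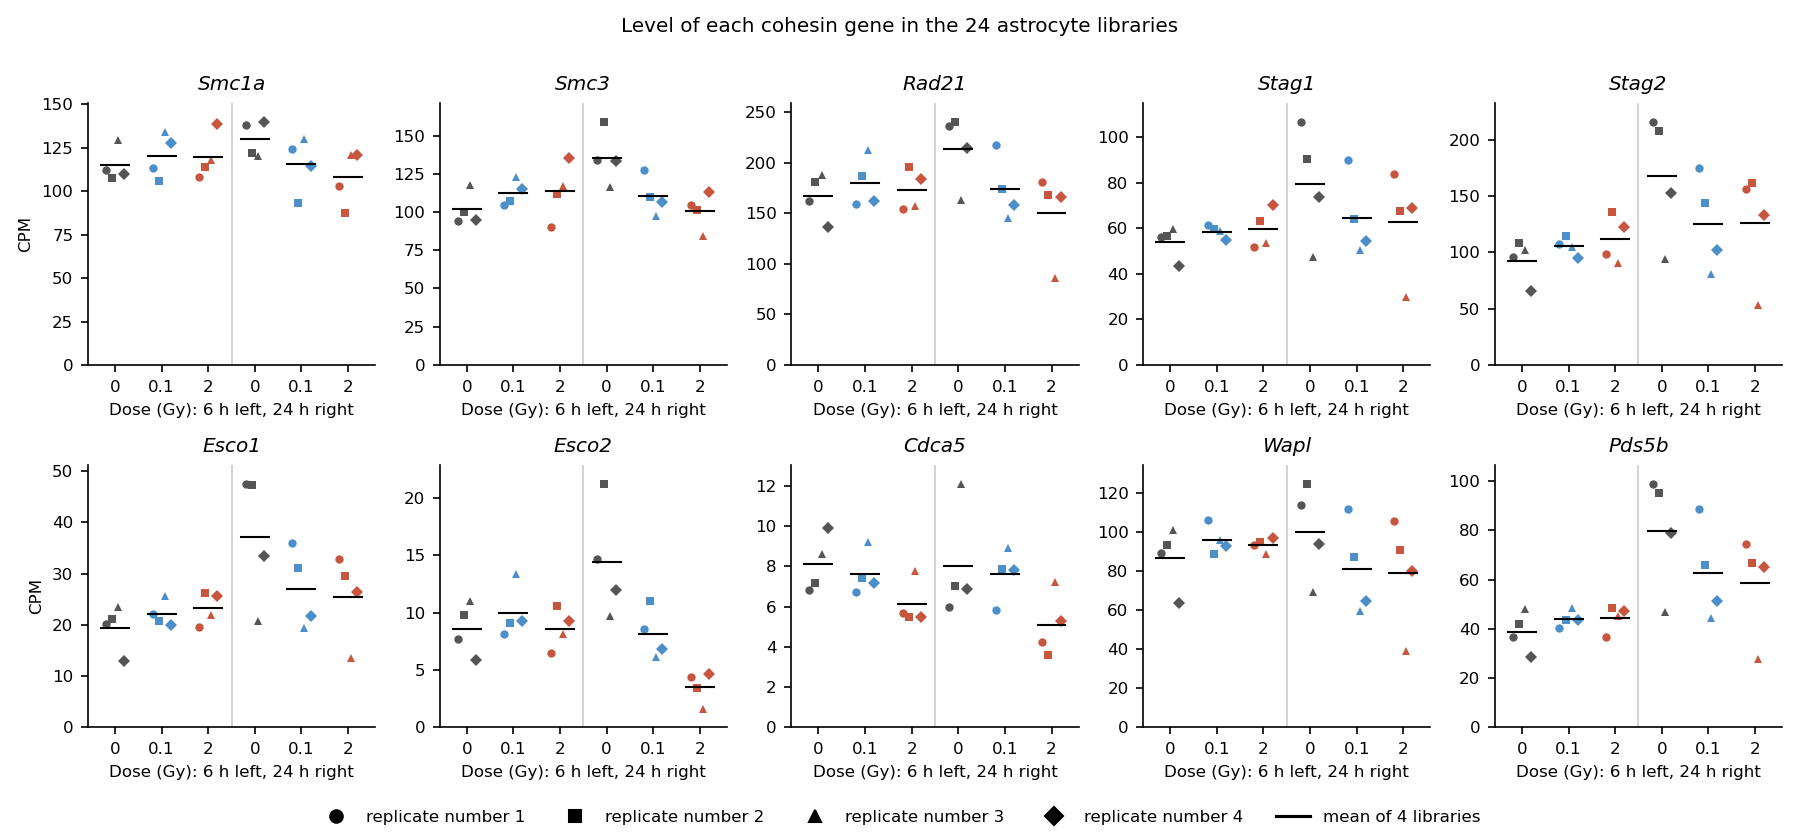
Level of each of the 10 cohesin genes (CPM, linear axes from 0) in the 24 libraries, by dose and time; symbols give the replicate number and bars the mean of 4 libraries. Esco2 in the 4 libraries at 24 h after 2 Gy lies between 1.55 and 4.60 CPM, below all 4 mock libraries of that time (9.66 to 21.2 CPM).

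The first question was whether cohesin transcripts differed 24 h after 2 Gy. Esco2, the S phase acetyltransferase, showed the widest difference of the 10 genes. Its level in the mock-irradiated replicates numbered 1 to 4 was 14.7, 21.2, 9.66 and 11.96 CPM, and after 2 Gy it was 4.36, 3.39, 1.55 and 4.60 CPM, from 33 to 124 counts a library. Every irradiated library lay below every mock library, and the means were 14.4 ± 4.99 and 3.48 ± 1.38 CPM (SD, n = 4). The log2 fold change was -2.04 (SE 0.386). With edgeR's quasi-likelihood test over 15892 genes, without pairing, the adjusted p (Benjamini-Hochberg) was 0.24. With the replicate number as a block (paired fit), in which the log2 fold change was -2.06, the adjusted p was 0.00249.

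Cdca5, whose product protects the acetylated ring, was lower by a smaller step. Its levels were 5.97, 7.03, 12.1 and 6.90 CPM in the mock libraries and 4.22, 3.57, 7.21 and 5.27 CPM after 2 Gy. The groups overlapped, since replicate 3 was high in both, but the irradiated library was the lower of the pair in 4 of 4 pairs. The log2 fold change was -0.66 (SE 0.303), with an adjusted p of 0.94 in the unpaired edgeR fit and 0.0254 in the paired fit.

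The ring subunits were lower by less. Rad21 was at 236, 240, 163 and 214 CPM in the mock libraries and at 181, 168, 85.9 and 166 CPM after 2 Gy, a log2 fold change of -0.50 (SE 0.253). Smc3, the subunit that Esco1 and Esco2 acetylate, was at 134, 159, 116 and 133 CPM against 105, 101, 84.2 and 113 CPM, a log2 fold change of -0.42 (SE 0.16). For Smc3 the groups did not overlap, for Rad21 they did. Smc1a had a log2 fold change of -0.26 (SE 0.148), with replicate 3 showing no decrease (120 and 121 CPM). The log2 fold changes of Stag1 and Stag2, the alternative subunits that bind Rad21, were -0.34 (SE 0.345) and -0.40 (SE 0.377), close to their standard errors: Stag2 was at 215, 208, 93.6 and 152 CPM in the mock libraries and at 156, 162, 53.6 and 133 CPM after 2 Gy.

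The remaining regulators had smaller differences than Esco2 and Cdca5. Esco1, the acetyltransferase not tied to S phase, had a log2 fold change of -0.54 (SE 0.341), from 47.4, 47.3, 20.8 and 33.4 CPM to 32.8, 29.4, 13.5 and 26.3 CPM. Pds5b, which binds the ring and takes part in its release as well as its protection, had one of -0.44 (SE 0.339), and Wapl, which opens the ring, one of -0.34 (SE 0.314). In these 3 genes the groups overlapped and the irradiated library was the lower of each pair.

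None of the 10 genes passed an adjusted p of 0.05 in the unpaired edgeR fit, in which 0% of the 15892 genes tested passed. At an unadjusted p under 0.05 there were 2 (Smc3 and Esco2) of the 10 genes, and 570 of all genes. DESeq2 called 1 of the 10, Esco2 with an adjusted p of 0.000143, and 0.456% of all genes as lower. With limma voom 0 of the 10 and 0 of 15892 genes were called. In the paired fit 8 of the 10 genes were called as lower, while 6.69% of all genes were. The exceptions were Smc1a, with an adjusted p of 0.105, and Wapl, with 0.0631. The groups did not overlap for 2 of the 10 genes, Smc3 and Esco2, which compares with 2.01% of all genes in that direction. All 10 log2 fold changes were negative, with a median of -0.43, beside 0.01 over all genes tested.

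How many of the 10 genes were called changed with the replicates used and with a joint correction for GC content and gene length. Without replicate 1, 2 or 4 the paired fit called Esco2 alone of the 10, with adjusted p between 0.0103 and 0.0343; of all genes, 0.680%, 0.376% and 0.875% were then called as lower. Cdca5 then had adjusted p between 0.0702 and 0.146. Without replicate 3 the paired fit called all 10, and 16.4% of all genes, as lower. For each library, the slope of log2 CPM on the GC content of a gene was computed, in log2 units for each 10 percentage points and relative to the mean of all libraries. At 24 h it was -0.390, -0.403, 0.227 and -0.214 in the mock replicates 1 to 4, and -0.062, 0.036, 0.444 and -0.039 after 2 Gy, so AT-rich transcripts were relatively lower in the irradiated library of each pair and lowest in replicate 3. Of the 10 genes, 9 had a GC content below the median of the genes kept (49.6%), from 36.7% in Esco2, at percentile 1.2, to 46.9% in Smc1a, and Cdca5 was above it with 51.5%.

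When GC content and gene length were corrected for in the paired fit, 2 of the 10 genes were called as lower, Esco2 and Cdca5, with 1.69% of all genes called in that direction. Esco2 had a log2 fold change of -1.70 and an adjusted p of 0.00403. Cdca5 had a log2 fold change of -0.78 and an adjusted p of 0.0253. The other 8 lay between -0.40 in Rad21, with an adjusted p of 0.0806, and -0.02 in Stag1, with one of 0.887. The median of the 10 log2 fold changes then was -0.16.

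**Figure D2:**
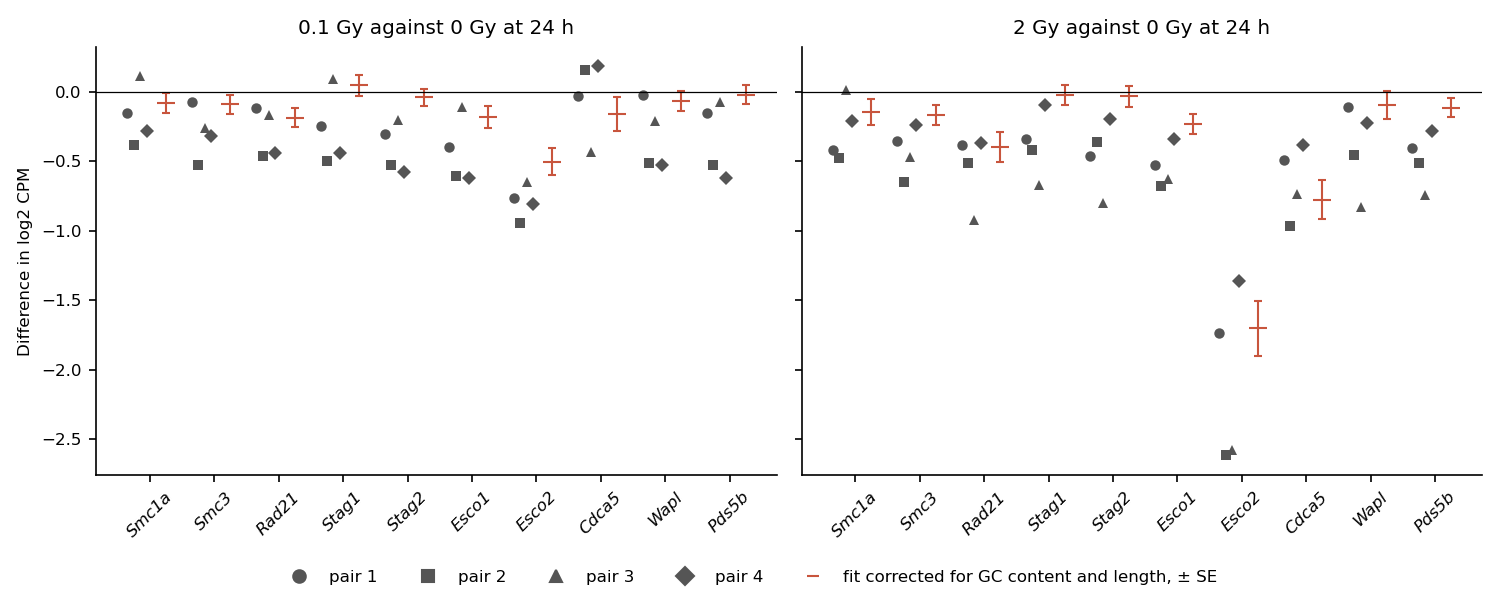
Difference in log2 CPM between irradiated and mock library of the same replicate number at 24 h, for 0.1 Gy (left) and 2 Gy (right); grey symbols are the 4 pairs, red bars the log2 fold change of the paired fit corrected for GC content and length, with its SE. After 2 Gy, Esco2 lies between -2.62 and -1.36 in the 4 pairs, while the corrected values of Stag1 and Stag2 are -0.02 and -0.03.

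Ratios within a library do not depend on its scaling, though they do carry differences in base composition. Esco2 and Cdca5 were also set against the ring subunits and Esco1 (12 ratios of log2 CPM). All 6 ratios of Esco2 were lower 24 h after 2 Gy, by between 1.52 (to Rad21) and 1.80 (to Smc1a) log2 units, the groups of 4 libraries did not overlap for any of them, and each of the 4 pairs was lower. The two-sided exact permutation test gave p = 0.02857 for each, the smallest value that 4 against 4 libraries allow, and 0.05714 after adjustment over the 12 ratios. For Cdca5, the 6 ratios differed by between -0.37 (to Smc1a) and -0.10 (to Rad21 and Esco1), the groups overlapped for all 6, and the adjusted p of the exact permutation test lay between 0.4408 and 0.7714. The pairs were lower in 4 of 4 for the ratios to Smc1a, Smc3 and Stag1 and in 3 of 4 for those to Rad21, Stag2 and Esco1. Without the mock library of replicate 3, which breaks a pair, 5 of the 6 differences of Cdca5 had the opposite sign. Esco2 was thus lower relative to the ring and to Esco1 in each pair, with an adjusted p above 0.05. With 4 libraries a group and 12 ratios, that adjusted p could not be lower unless ratios of Cdca5 also reached the smallest value. It therefore cannot decide whether Esco2 differs from the ring, and the test does not use the pairing. The ratios were not corrected for GC content; in the corrected paired fit the log2 fold change of Cdca5 was -0.78, beside -0.40 for Rad21, -0.23 for Esco1, -0.17 for Smc3, -0.14 for Smc1a, -0.03 for Stag2 and -0.02 for Stag1, and these gaps were not tested. After 0.1 Gy the 6 ratios of Esco2 were lower by between 0.36 and 0.62 log2 units, in 4 of 4 pairs each, with an adjusted p of 0.3429 in the exact permutation test, and those of Cdca5 differed by between 0.15 and 0.40.

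The balance of the acetyltransferases was also read per library. Per kb of exon, Esco2 was at 0.353, 0.511, 0.529 and 0.408 of the level of Esco1 in the mock libraries at 24 h, and at 0.151, 0.131, 0.132 and 0.199 of it after 2 Gy. The mean ratio was 0.450 ± 0.0839 without and 0.153 ± 0.0319 (SD, n = 4) with 2 Gy. After 0.1 Gy it was 0.349 ± 0.0554. At 6 h the mean ratio was 0.504 ± 0.0447 in mock, 0.510 ± 0.0723 after 0.1 Gy and 0.418 ± 0.0352 after 2 Gy, with overlapping groups, although the library after 2 Gy was below its mock partner in 4 of 4 pairs. The libraries at 24 h after 2 Gy lay below all 20 others.

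**Figure D3:**
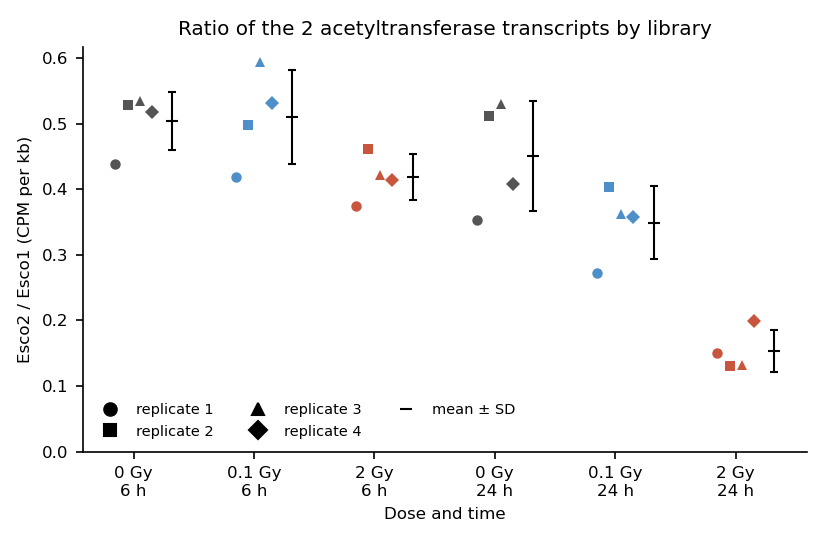
Ratio of Esco2 to Esco1 (CPM per kb of exon, linear axis from 0) in each library by dose and time, with mean ± SD of 4 libraries beside the points. The 4 libraries at 24 h after 2 Gy lie between 0.131 and 0.199, and the mock libraries of that time between 0.353 and 0.529.

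Exposure to 0.1 Gy was compared with the same 4 mock libraries at 24 h. Esco2 was at 8.59, 10.99, 6.12 and 6.79 CPM after 0.1 Gy and was lower than its mock partner in 4 of 4 pairs, by between 0.65 and 0.94 log2 units. The groups overlapped, since the highest library after 0.1 Gy (10.99 CPM) exceeded the lowest mock library (9.66 CPM). The log2 fold change was -0.83 (SE 0.289) with an adjusted p of 0.943 in the unpaired edgeR fit, -0.81 with 0.0174 in the paired fit, and -0.50 with 0.0189 after correction for GC content and length. Cdca5 was at 5.85, 7.85, 8.90 and 7.83 CPM, with a log2 fold change of -0.08 (SE 0.254), lower in 2 of 4 pairs.

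None of the 10 genes was called in the unpaired fit at 0.1 Gy and 24 h, nor was any of 16183 genes (0%). At an unadjusted p under 0.05 there was 1 of the 10 genes, Esco2, beside 241 of all genes. DESeq2 and limma voom called 0 of the 10, beside 0 of 30033 and 0 of 16183 genes. The paired fit called Stag2 (log2 fold change -0.41, adjusted p 0.0286), Esco1 (-0.45, 0.0323) and Esco2 as lower, 3 of the 10 genes against 4.50% of all genes. With GC content and length corrected, Esco2 alone was called, against 0.544% of all genes. Stag2 then had a log2 fold change of -0.04 and an adjusted p of 0.795, and Esco1 -0.18 and 0.225. Esco2 was also called in the paired fit without each of the 4 replicates in turn, with adjusted p between 0.00162 and 0.0494. Without replicate 3 the paired fit called 9 of the 10 genes, and 11.8% of all genes, as lower.

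Set directly against 0.1 Gy, the libraries at 2 Gy held less Esco2 at 24 h, with a log2 fold change of -1.21 (SE 0.367) and groups that did not overlap. This was the case for 1 of the 10 genes and for 1.06% of all genes in that direction. The unpaired edgeR fit called 0 of the 10 genes and 0% of 16002 genes. In it Esco2 and Cdca5 had an unadjusted p of 0.00967 and 0.0448, as 215 of all genes had one under 0.05. DESeq2 and limma voom called 0 of the 10, beside 39 of 17731 and 0 of 16002 genes. The paired fit gave Esco2 an adjusted p of 0.157 (0.833, 0.723, 0.0367 and 0.0246 without replicates 1 to 4 in turn), and with GC content and length corrected one of 0.0304, where 0.619% of all genes were called as lower. Cdca5 had a log2 fold change of -0.58 (SE 0.247) and was lower in 4 of 4 pairs, with an adjusted p of 1.0 unpaired and 0.113 in the corrected paired fit. The other 8 genes lay between -0.19 (Rad21) and 0.03 (Stag2) and were not called in any of these fits.

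At 6 h after 2 Gy none of the 10 genes was called. Esco2 was at 7.73, 9.80, 11.02 and 5.83 CPM in the mock libraries and at 6.47, 10.6, 8.09 and 9.29 CPM after 2 Gy, with group means of 8.60 ± 2.29 and 8.60 ± 1.75 CPM, and the sign of its log2 fold change (-0.00, SE 0.231) turned with the normalization. Cdca5 was at 6.84, 7.15, 8.60 and 9.89 CPM in the mock libraries and at 5.68, 5.48, 7.76 and 5.498 CPM after 2 Gy. It was lower in 4 of 4 pairs, but the groups overlapped; its log2 fold change was -0.41 (SE 0.191), with an unadjusted p of 0.0603 and an adjusted p of 1.0 in the unpaired edgeR fit. The other 8 genes had log2 fold changes between 0.05 (Rad21) and 0.27 (Stag2), none of them called.

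The unpaired edgeR fit called 0% of 15994 genes at 6 h after 2 Gy, and none of the 10 had an unadjusted p under 0.05, beside 215 of all genes. DESeq2, limma voom and the paired fit called 0 of the 10, beside 1 of 30045, 0 of 15994 and 0 of 15994 genes. The ratios of Cdca5 to the ring subunits and Esco1 were lower by between 0.46 (Rad21) and 0.70 (Esco1) log2 units at 6 h, with adjusted p between 0.2057 and 0.2571 in the exact permutation test over 12 ratios; for the ratio to Smc3 the groups did not overlap. Those of Esco2 differed by between -0.27 (Esco1) and -0.03 (Rad21), with adjusted p between 0.2057 and 0.8857; the ratios to Esco1, Stag2 and Stag1 were lower in 4 of 4 pairs. After 0.1 Gy at 6 h Esco2 was at 8.11, 9.07, 13.3 and 9.25 CPM, a log2 fold change of 0.21 (SE 0.239). There the unpaired fit called 0 of the 10 genes and 0% of 16020 genes, and none of the 10 had an unadjusted p under 0.05, beside 24 of all genes. DESeq2, limma voom and the paired fit called 0 of the 10, beside 0 of 30149, 0 of 16020 and 0 of 16020 genes.

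Whether the response to 2 Gy differed between 24 h and 6 h was tested with an interaction term over the 16 libraries at 0 and 2 Gy. For Esco2 the interaction was -2.03 (SE 0.456) with an unadjusted p of 0.000452 and an adjusted p of 0.819 in the unpaired edgeR fit. In that fit 0 of the 10 genes and 0% of 16866 genes were called; 2 of the 10 (Smc3 and Esco2) and 827 of all genes had an unadjusted p under 0.05. DESeq2 called 1 of the 10, Esco2 with an adjusted p of 0.0299, and 0.0478% of all genes with a negative term. With limma voom 0 of the 10 and 0 of 16866 genes were called. The fit paired within each time called 4 genes, against 3.23% of all genes with a negative term: Smc3 (-0.56, adjusted p 0.0421), Esco1 (-0.81, 0.041), Esco2 (-2.05, 0.0152) and Pds5b (-0.68, 0.0418). With GC content and length corrected, Esco2 remained (-1.56, adjusted p 0.0129), against 0.818% of all genes. In the paired fit Esco2 lost its call without replicate 1 (-2.26, adjusted p 0.12) or 2 (-1.81, 0.286), where 0 of 17030 and 0 of 16592 genes were called. Smc3, Esco1 and Pds5b lost theirs without replicate 1, 2 or 4, and 138 of 16951 genes were called without replicate 4. Cdca5 had an interaction of -0.24 (SE 0.364), so for it a difference between the times was not shown. Among the cell type markers, Olig1 of the oligodendrocyte lineage passed in the paired fit (0.54, adjusted p 0.0496), where 1143 of 16866 genes were called. It did not pass after the correction (0.00, 0.994), and its part was not tested.

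Mock-irradiated cells at 24 h and 6 h were compared next. Pds5b rose from 36.7, 42.0, 48.1 and 28.7 CPM at 6 h to 98.7, 95.2, 46.7 and 79.1 CPM at 24 h, a log2 fold change of 1.03 (SE 0.251) with an adjusted p of 0.0429 in the unpaired edgeR fit. It was the only one of the 10 genes called, while 6.70% of 15887 genes were. The library numbered 3 at 24 h (46.7 CPM) lay within the range at 6 h, so the groups overlapped. Pds5b lost its call when any of the 8 libraries but the mock replicate 3 at 24 h was left out, with adjusted p between 0.0625 and 0.133, and without that library 6 of the 10 genes were called, beside 9.24% of all genes called as higher. Esco1 had a log2 fold change of 0.93 (SE 0.286, adjusted p 0.0871), Stag2 one of 0.84 (SE 0.268, 0.0934) and Esco2 one of 0.73 (SE 0.291, 0.16), while Cdca5 was at 8.12 ± 1.41 CPM at 6 h and 7.99 ± 2.77 CPM at 24 h (SD, n = 4). DESeq2 called Stag2, Esco1 and Pds5b, with adjusted p of 0.0426, 0.0302 and 0.00478, 3 of the 10 genes beside 6.04% of all genes called as higher. The relation of counts to GC content also differed between the times: its slope lay between -0.066 and 0.217 in the mock libraries at 6 h, and was -0.39, -0.403, 0.227 and -0.214 at 24 h. In the paired fit corrected for GC content and length the log2 fold change was 0.68 for Pds5b (adjusted p 0.00219), 0.65 for Esco1 (0.00672), 0.43 for Stag2 (0.00993) and 0.43 for Esco2 (0.0451), although replicate numbers were not shown to pair libraries across times, and 4204 of 15887 genes were called there. Markers of cell types moved in the same comparison. In the paired fit Syt1 of neurons was higher (0.97, adjusted p 0.0259) and Sox10 of the oligodendrocyte lineage lower (-1.12, 0.0485), beside 2428 of 15887 genes called. With the correction Syt1, Olig1 (0.64, 0.00188), Olig2 (0.65, 0.0056) and Sox9 (0.46, 0.0368) were called as higher, and Gja1, Aif1, Itgam and Dcn as lower, by values between -1.58 (Dcn) and -0.41 (Aif1). Their part in the values of the 10 genes was not tested.

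The other genes of the pathway were read from a fixed list of 21, of which 19 passed the filter at 24 h in the comparison of 2 Gy with mock. In the unpaired edgeR fit 0 of the 19 and 0 of 15892 genes were called, and 7 of the 19 had an unadjusted p under 0.05, beside 570 of all genes. DESeq2 called 1 of them, beside 93 of 19968 genes, and limma voom 0, beside 0 of 15892. A negative log2 fold change was seen in 16 of 19, with a median of -0.53. In the paired fit 10 were called as lower, beside 6.69% of all genes, and 1 (Rec8) as higher, beside 6.53% of all genes. After correction for GC content and length 6 were called as lower, beside 1.69% of all genes: Haspin, Sgo1, Sgo2a, Espl1, Chtf18 and Timeless. Sgo1, the shugoshin that protects centromeric cohesin in mitosis, went from 8.84 ± 1.97 to 3.48 ± 0.383 CPM (SD, n = 4), with a corrected log2 fold change of -1.10 and an adjusted p of 0.00398. Espl1, the separase that cleaves Rad21 at anaphase, went from 12.5 ± 3.14 to 7.72 ± 0.688 CPM, with a corrected log2 fold change of -0.79 and an adjusted p of 0.00594. Pttg1, the securin that holds separase inactive, was at 24.0 ± 1.74 and 25.4 ± 5.92 CPM and was not called. Nipbl, which loads cohesin, had a corrected log2 fold change of -0.30 with an adjusted p of 0.0528, and its partner Mau2 one of 0.02 with 0.928.

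The germline subunits were low or uneven. Rec8, the meiotic counterpart of Rad21, was at 10.5 ± 4.26 CPM in mock and 18.2 ± 10.3 CPM after 2 Gy at 24 h, and its higher value was called in the paired fit (adjusted p 0.032) but not after correction (0.162). Stag3 was at 5.44 ± 1.19 and 4.41 ± 0.586 CPM and was not called. Smc1b stayed below 1 CPM on average, with 0.435 ± 0.172 CPM in mock, and Rad21l at 0.0378 ± 0.0496 CPM; neither passed the filter in that comparison.

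Related gene lists were read in the same comparison, beside 6.69% of all genes called as lower in the paired fit and 1.69% after correction. Of 8 condensin genes, which compact chromosomes for mitosis, 7 were called as lower in the paired fit and 6 after correction, with a median log2 fold change of -0.78 in the unpaired fit; Ncapg, for example, had a corrected value of -0.74. Of 6 MCM genes, the replicative helicase, 6 were called as lower in both paired fits, with a median of -0.71. Of 6 genes of the Smc5/6 complex 2 were called in the paired fit and 1 (Smc6) after correction, with a median of -0.19 in the unpaired fit, 4 of 6 values negative, and 0.00 after correction. All 5 proliferation markers were called as lower in both, with a median of -1.25: Mki67 had a mean of 107 CPM in mock (from 59.2 to 129.5 CPM, n = 4) and of 35.2 CPM after 2 Gy (from 21.1 to 49.7 CPM, n = 4). None of these genes was called in the unpaired edgeR fit, where 18 of the 25 and 570 of all genes had an unadjusted p under 0.05. Of the 25, DESeq2 called 6, beside 0.456% of all genes as lower, and limma voom 0, beside 0 of 15892 genes. The part of proliferation in the values of Esco2 and Cdca5 was not tested.

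**Figure D4:**
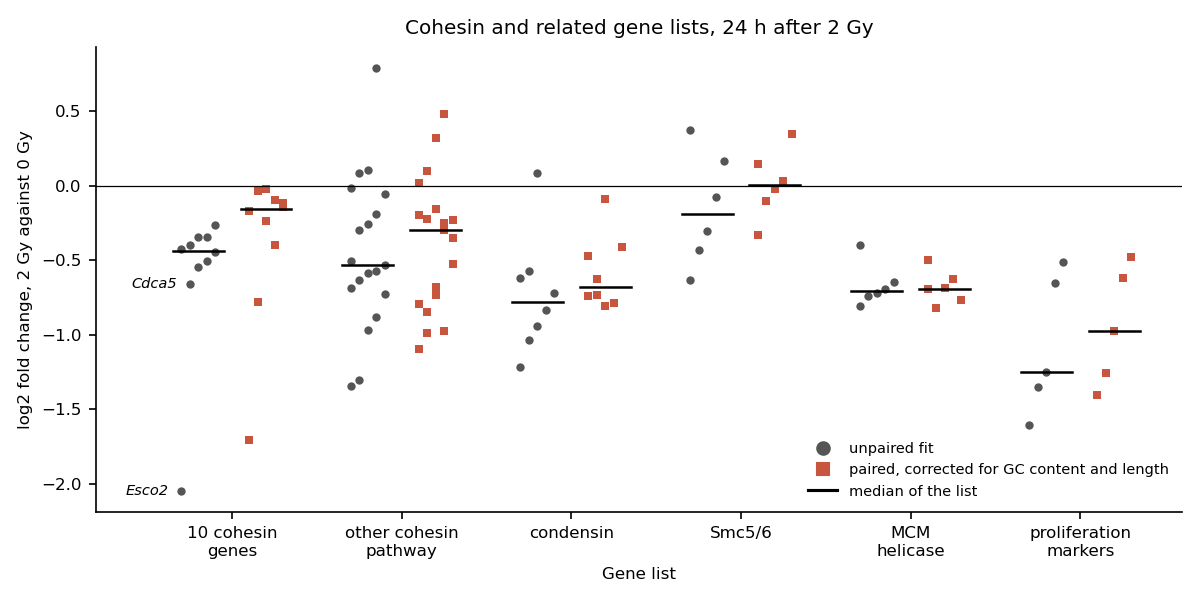
log2 fold change 24 h after 2 Gy against mock for each gene of the 10 cohesin genes, the other cohesin pathway genes, condensin, Smc5/6, MCM and proliferation lists; grey points are the unpaired fit, red squares the paired fit corrected for GC content and length, bars the median of each list. Esco2 lies at -2.04 and -1.70, below every other gene plotted in the same fit.

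The profile over the 24 libraries was described for each gene by the 3 genes with the highest Pearson r of log2 CPM, among 11624 genes with a mean of 5 CPM or more. The libraries share cultures, depth and base composition, so r is a description. For Esco2 these included Plk4 (r = 0.942) and Ncapg (0.94), and for Cdca5 they were Mcm3 (0.885), Chaf1b (0.884) and Incenp (0.884). Rad21 was nearest to Lin54 (0.971), Topbp1 (0.95) and Spire1 (0.948), and Smc3 was nearest to Nbn (0.897), Zfp943 (0.882) and Mospd1 (0.881). Smc1a was nearest to Rab9 (0.858), Sms (0.832) and Mbd2 (0.812), and Stag1 was nearest to Snx13 (0.976), Zfp638 (0.973) and Zfp24 (0.965). Stag2 was nearest to Usp32 (0.987), Slmap (0.98) and Dzip3 (0.979), and Wapl was nearest to Lats1 (0.979), Ranbp2 (0.977) and Suz12 (0.975). Pds5b was nearest to Man1a2 (0.974), Top2b (0.97) and Kpna4 (0.969), and Esco1 was nearest to Nipbl (0.971), Smarcad1 (0.971) and Tug1 (0.968). Among the 10 themselves, Stag1, Stag2, Esco1 and Pds5b had r between 0.898 (Stag1 with Pds5b) and 0.964 (Stag2 with Esco1). Esco2 had r = 0.826 with Rad21 and 0.544 with Esco1, and Cdca5 had r between -0.537 (Stag2) and 0.326 (Smc1a) with the other 9. Within groups, after subtracting each group's mean, r was 0.886 for Esco2 with Rad21, 0.876 for Esco2 with Esco1, -0.844 for Cdca5 with Stag2 and 0.202 for Cdca5 with Smc1a. With the proliferation markers, r was 0.904 for Esco2 and 0.214 for Cdca5 with Mki67, 0.87 and 0.463 with Ccna2, 0.863 and 0.37 with Top2a, 0.617 and 0.746 with Cdk1, and 0.45 and 0.675 with Pcna, so the order of Esco2 and Cdca5 differed between markers.

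On the genome of the files (mm10), Esco2 (ENSMUSG00000022034) lies on chromosome 14 from 65819038 to 65833994, minus strand, with 4.01 kb of exon, and Cdca5 (ENSMUSG00000024791) on chromosome 19 from 6084983 to 6091777, plus strand, with 2.13 kb. Reads were counted over exons of each gene. Of the 10 genes, only Stag2 shared exon bases with another annotated gene, Gm37564, over 28 bases, and that gene held 15 counts in all libraries together against 72072 for Stag2.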

How the data were processed

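Poly(A) RNA of 24 libraries was sequenced in 1 run; per the labels and the study's methods, the sequencing company trimmed and mapped the reads (mm10), and the authors deposited raw counts per Ensembl gene over exons, 1 library per file. The aligner, the counting tool and the use of strand are not given in the sources used here. Genes were filtered (filterByExpr), scaled (TMM) and tested with edgeR 4.0.16 (quasi-likelihood, R 4.3.3) for each of 7 comparisons, with Benjamini-Hochberg adjustment over all genes. DESeq2 1.42.0 and limma 3.58.1 (voom), other filters and scalings, and each library left out were alternatives, and scripts were tested on simulated data. In the paired fit the replicate number was a block. The labels do not say what a number shares. Same-numbered libraries deviated together within each time (correlations 0.514 to 0.907). Across times, in mock, the correlation was 0.378, 0.8 and 0.493 for replicates 1, 2 and 4, but 0.0887 for replicate 3. GC content came from GENCODE M21 transcripts, and the correction used splines with 5 degrees of freedom in GC content and log length for each library. Log2 CPM used a prior count of 2. Within a group, no library was a copy of another: over 36 pairs of replicates, chi-square divided by its degrees of freedom was 28.3 or more. Libraries of different groups were not compared in this way. The replicates are described as biological repeats. Esco2 and Cdca5 had 33 to 455 and 62 to 342 counts a library.
The 10 genes, the pathway lists and the markers were chosen with earlier results of these data known. All 10 genes were named in the text, other list genes where they passed a fit or their role called for it, and for each gene the 3 with the most similar profile. One gene that the last rule names is not reported here.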

Additional observations from a re-analysis of the deposited data

Results flagged for a closer look

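Of 60 groups of 4 libraries (10 genes in 6 groups), 3 held a library whose gap to the others exceeded the critical value of Dixon's test, which chance passes in about 1 of 20 groups. Rad21 in replicate 3 at 24 h after 2 Gy was at 85.9 CPM, with the other libraries between 166 and 181 CPM. Pds5b in the same library was at 27.9 CPM, with the others between 65.1 and 74.6 CPM. Cdca5 in replicate 3 at 6 h after 2 Gy was at 7.76 CPM, with the others between 5.48 and 5.68 CPM.

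In edgeR's interaction test of 2 Gy and time (24 h and 6 h), paired within time, 4 of the 10 genes passed, beside 3.23% of all genes with a negative term. Without replicate 1 or 2 Esco2 lost its call, and the other genes lost theirs without replicate 1, 2 or 4. The interaction was -2.0514 for Esco2 (adjusted p 0.0152), -0.8098 for Esco1 (0.041), -0.6751 for Pds5b (0.0418) and -0.5644 for Smc3 (0.0421). With GC content and length corrected, the adjusted p was 0.0129 for Esco2, 0.133 for Esco1, 0.263 for Pds5b and 0.223 for Smc3, and in the unpaired fit it was 0.819 for each of the 4.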

How the results depend on the processing

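How many of the 10 genes passed (adjusted p below 0.05) moved as follows. For 2 Gy against mock at 24 h (0 unpaired), DESeq2 and a fit of all 24 libraries each gave 1 (Esco2), beside 93 of 19968 and 108 of 17353 genes. The replicate block gave 8, beside 2100 of 15892 genes, and the block with GC and length correction 2, beside 563 of 15892. For 0.1 Gy at 24 h (0 unpaired) the block gave 3 and the corrected block 1, beside 1107 and 330 of 16183 genes. For 2 Gy against 0.1 Gy the corrected block gave 1, beside 106 of 16002 genes. For the interaction (0 unpaired) DESeq2 gave 1, beside 7 of 14636 genes, and the block 4 and the corrected block 1, beside 1143 and 337 of 16866. For 24 h against 6 h in mock (1 unpaired, Pds5b) DESeq2 and the fit of all libraries each gave 3, beside 1969 of 17744 and 2488 of 17353 genes, limma voom 0, beside 1009, and, although replicate numbers were not shown to pair libraries across times, the block 3 and the corrected block 4, beside 2428 and 4204 of 15887. At 6 h after either dose all alternatives gave 0. Single libraries, or a replicate number from the paired fit (chosen after seeing the data), were also left out. This gave 0 to 10 at 24 h after 2 Gy, 0 to 9 after 0.1 Gy and 0 to 1 for 2 Gy against 0.1 Gy. It gave 0 to 8 between times and 0 to 8 for the interaction. Each highest count above 1 came without replicate 3. The paired fit without replicate 3 called 5291 of 15986 genes at 24 h after 2 Gy and 3728 of 16060 after 0.1 Gy. It called 7192 of 15840 genes between times and 3951 of 16871 for the interaction.

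Signs turned for 16 of the 70 log2 fold changes (10 genes, 7 comparisons), the largest of these being 0.31 in size; of 1550 alternative values 57 were reversed, 11 lost and 83 gained a call. Esco2 at 6 h after 2 Gy was 0.0017 with DESeq2 size factors and 0.0004 with the block, and -0.19 to 0.15 with libraries left out. Cdca5 at 24 h after 0.1 Gy was 0.0135 by library size alone and -0.18 to 0.18 with libraries left out, and its interaction -0.46 to 0.0249. Of 216 alternative ratios 16 were reversed, all with a library left out: at 24 h after 2 Gy, Cdca5 to Smc3 ranged from -0.48 to 0.0689, to Rad21 from -0.53 to 0.24, to Stag1 from -0.77 to 0.18, to Stag2 from -0.74 to 0.28 and to Esco1 from -0.56 to 0.37; at 6 h, Esco2 to Smc1a ranged from -0.19 to 0.0693 and to Rad21 from -0.11 to 0.0404. The causes were not tested. The log2 fold change of Esco2 at 24 h after 2 Gy kept its sign throughout, from -2.32 to -1.70.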
